A study of Homo sapiens with 45 samples.

Results

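The genes that detect, clear and clean up after collided ribosomes were followed through 45 mRNA sequencing libraries of HAP1 cells, a near-haploid human line derived from the leukaemia line KBM-7. The set held 32 genes, chosen by name from the literature on ribosome-associated quality control and matched by symbol among the 60676 genes of the count table. All 32 were found, and 31 passed the filter on low counts, which left 11078 genes for testing. Only RNF25, which is itself edited in the study, fell below it. The study had 6 genotypes. The AAVS1 line, edited at a site often used as a neutral control, was the reference. The others were knockouts (KO) of RNF25, GCN2 and ZNF598, a double knockout of RNF25 and GCN2 (RNF25 GCN2 DKO), and eS31 K113R, with a lysine substitution in the small-subunit protein encoded by RPS27A. Each was left untreated or given 5 uM azacytidine (azaC, a cytidine analogue incorporated into RNA and DNA) over 4 h. A further treatment, of the AAVS1, RNF25 KO and GCN2 KO lines only, was HF (halofuginone, which blocks the charging of proline tRNA) at 25 nM over the same 4 h. There were 15 groups of 3 libraries, all called biological replicates. The labels do not say how the cultures were separated or whether a line was 1 clone, so p-values measure the spread between these libraries. For untreated eS31 K113R replicates 2 and 3 the titles read eS32_K223R and the described columns eS31_K113R. They were placed by the columns.

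When a ribosome stalls on an mRNA, the next ribosome runs into it, and the joined small subunits form a surface that sensor proteins recognise. Ubiquitin ligases mark small-subunit proteins there, helicases and release factors split the ribosomes, a repressor complex stops further initiation on the mRNA, and the unfinished chain on the large subunit is tagged and degraded. The same stalled ribosomes can activate GCN2, the kinase encoded by EIF2AK4, and through it the integrated stress response. Messenger RNA levels show the supply of these factors and not their activity at ribosomes, which is set largely by binding and modification of the proteins.

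Total counts per library ran from 1135498 to 2478875, and a tested gene had a median of 27 to 66 counts per library. The biological coefficient of variation of the whole fit was 22.1%. Of 8 haematopoietic markers, 0 passed the filter. Their summed level was 0 to 1.67 CPM (counts scaled to the library's effective total), and CD33, GATA1, MPO and HBG1 had 0 counts in all 45 libraries. BCR and ABL1, the fusion partners of the parent leukaemia, were both measured, at a summed 2.99 to 21.9 CPM. Of the 11 epithelial, fibroblast and neural markers only COL1A1 passed the filter, at up to 24.7 CPM. In 2 libraries the level of genes followed their GC content more than elsewhere. Those were untreated AAVS1 replicate 2, with a slope of -0.51 log2 per 10 percentage points of GC, and azaC-treated RNF25 KO replicate 2, with a slope of 0.39. Without drug, EIF2AK4 averaged 44 ± 1.64 CPM in AAVS1, 58.7 ± 10.4 in RNF25 KO, 22 ± 2.41 in GCN2 KO and 39.6 ± 3.73 in RNF25 GCN2 DKO (SD, n = 3). Its mRNA was thus lowest in the single GCN2 knockout. The double knockout was near AAVS1 and below RNF25 KO, and these counts do not check its GCN2 edit. The eS31 substitution cannot be seen in gene counts. In RNA from whole cultures a lower share of a transcript and a lower RNA content per cell cannot be told apart.

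The members spanned a wide range of abundance (plot of levels in untreated AAVS1 cells). Per kilobase of merged exon, the collision sensor EDF1 and the small-subunit scaffold RACK1 were highest, with medians over all libraries of 166 and 164 CPM per kb. In untreated AAVS1 alone RACK1 was above EDF1, at means of 152 ± 56.8 and 123 ± 86.3 (SD, n = 3). The per-kb values that follow are medians over all libraries unless a group is named. VCP, the segregase that extracts ubiquitylated chains, followed at 55.2, and TCF25, which helps LTN1 build ubiquitin chains, at 49.2. The repressor EIF4E2, a cap-binding protein, was at 30.8, above its partners GIGYF2 at 18.4 and GIGYF1 at 7.88. ZNF598, the ligase that marks collided ribosomes, was at 17.8. RNF10, a ligase for small-subunit proteins, was at 15.5, and RNF14, a ligase that acts with RNF25, at 2.16. In untreated AAVS1 alone RNF10 was above ZNF598, at means of 18.2 ± 2.57 and 13.3 ± 2.27 CPM per kb (SD, n = 3). Of the helicase complex that splits collided ribosomes, TRIP4 was at 18.8, ASCC2 at 10.9, ASCC3, the helicase itself, at 4.3 and ASCC1 at 0.398 CPM per kb. The rescue factors ranged from 14.2 for ABCE1, which recycles split ribosomes, through 3.42 for PELO and 3.33 for its GTPase partner HBS1L, to 1.09 for GTPBP2. RNF25 was at 0.495. By this measure the subunits of these complexes were not at equal mRNA levels in HAP1 cells, and ASCC1 and OTUD1 had only 202 and 212 counts in all 45 libraries together. Merged exons pool all annotated transcripts of a gene, so the order depends on that length. Unscaled, untreated RNF25 KO means were 1040 CPM for RACK1 and 211 for EDF1, and 102 for RNF10 and 63.3 for ZNF598. With azaC in that line RNF10 was at 86 ± 12.5 and ZNF598 at 99.8 ± 29.6 (SD, n = 3). Neither change with azaC passed there (edgeR adjusted p = 0.805 and 0.164).

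Across the 15 groups the typical member varied less between group means than the typical tested gene, without matching for count. The ratio of the highest to the lowest group mean had a median of 1.66 over the members and 2.03 over all tested genes. It stayed under 1.5 for 8 of the 31 tested members and for 15.6% of tested genes. TCF25, RACK1, RNF10 and USP10, a deubiquitylase of small-subunit proteins, were the steadiest, at 1.34 to 1.35. Among the 31 tested members the widest ratios belonged to OTUD1 at 5.9 and ASCC1 at 5.51, which had the fewest counts of them, followed by GTPBP2 at 2.76, ZNF598 at 2.68, PELO at 2.48 and ANKZF1 at 2.47. Untreated AAVS1 replicate 2 stood apart for EDF1 and NPLOC4. EDF1 was at 28.4 CPM there, against 208 and 207 in the other libraries of the group. NPLOC4, a VCP adaptor, was at 9.48 CPM against 61.1 and 43.7. RACK1 and TCF25, steady between group means, also ranged widely within untreated AAVS1, at 519 to 1130 and 229 to 439 CPM. Every comparison of these genes with untreated AAVS1 rests in part on that group's libraries, replicate 2 among them.

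ZNF598 mRNA was lower in each library of the ZNF598 KO line than in every library of the other lines, though it was still present (plot of ZNF598 in all groups). The gene (ENSG00000167962) lies on the minus strand of chromosome 16, from 1997654 to 2009823 in GRCh38. Exons of AC005606.1 on the opposite strand cover 10.7% of its exon length. The 250 bases before its RefSeq start, at chr16:2009822-2010071 on the minus strand in GRCh38.p14, are shown because ZNF598 changed in more comparisons than any other member. They held none of the 6 motifs searched and are printed without capitals.
ZNF598: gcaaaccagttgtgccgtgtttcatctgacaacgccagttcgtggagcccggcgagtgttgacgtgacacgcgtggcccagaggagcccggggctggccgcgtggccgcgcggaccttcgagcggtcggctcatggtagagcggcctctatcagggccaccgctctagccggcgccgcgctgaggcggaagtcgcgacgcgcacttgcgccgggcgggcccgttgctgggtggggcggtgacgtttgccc
Untreated ZNF598 KO libraries were at 41.9, 30.5 and 39.2 CPM, and azaC-treated ones at 47.5, 42.8 and 46.6. The 39 libraries of the other 5 lines ran from 55.9 to 125 CPM with a median of 84.1, so the 2 sets did not overlap. Averaged over untreated and azaC-treated cells, the KO line stood at 0.505 of the mean of the other 5 lines, a log2 difference of -0.99 ± 0.12 (SE; edgeR adjusted p = 1.99e-08). Of all tested genes, 4.22% passed in that comparison. The call held in 45 of 45 alternative analyses, with adjusted p from 1.14e-13 to 9.91e-07. Against untreated AAVS1 alone the log2 difference was -0.74 ± 0.20 and did not pass (adjusted p = 0.065, range 0.026 to 0.782 over 14 alternatives, 1 of which passed). Untreated AAVS1 was at 74.9, 56.9 and 55.9 CPM, the lowest group mean outside the KO line. The gene counts do not show where the edit lies, and reads outside it would still be counted.

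Among the other lines, untreated RNF25 KO was at 58.0, 59.7 and 72.3 CPM of ZNF598, GCN2 KO at 79.2, 62.8 and 84.8, RNF25 GCN2 DKO at 74.5, 86.7 and 76.2, and eS31 K113R at 98.6, 83.5 and 67.5. These ranges overlapped. With azaC, AAVS1 was at 87.2, 88.8 and 93.5, RNF25 KO at 107, 125 and 67.3, and GCN2 KO at 103, 97.9 and 83.5. RNF25 GCN2 DKO was at 87.9, 88.6 and 67.2 with azaC, and eS31 K113R at 106, 87.3 and 97.1. With HF, AAVS1 was at 84.6, 88.7 and 77.0, RNF25 KO at 121, 98.3 and 79.3, and GCN2 KO at 83.6, 84.1 and 74.1. In order, the group means ran from 37.2 ± 5.97 in untreated and 45.6 ± 2.52 in azaC-treated ZNF598 KO, through 62.5 ± 10.7 in untreated AAVS1 and 63.3 ± 7.82 in untreated RNF25 KO, to 99.5 ± 20.7 in HF-treated and 99.8 ± 29.6 CPM in azaC-treated RNF25 KO (SD, n = 3). Above the KO line the widest step between neighbours was from 63.3 to 75.6 ± 11.5 in untreated GCN2 KO, and the libraries of these groups overlapped. In eS31 K113R, ZNF598 was 0.36 ± 0.10 log2 above the mean of the other 5 lines (1.28-fold, edgeR adjusted p = 0.0195, 8.39% of all genes passing). That mean contained the ZNF598 KO line itself. Without it the log2 difference was 0.17 and did not pass (adjusted p = 0.417). Leaving out untreated eS31 K113R replicate 1 or 2, or azaC-treated replicate 1 or 3, also lost the call, with adjusted p of 0.142, 0.0527, 0.0901 and 0.0556.

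RNF25, the ligase that ubiquitylates the ribosomal protein eS31 (chromosome 2, 218663864 to 218672411, minus strand, ENSG00000163481), had 91 counts in all libraries together and 0 to 7 in any of them. The 9 RNF25 KO libraries held 14 counts, with at most 4 in a library and 0 in 3 of them. The 6 RNF25 GCN2 DKO libraries held 11, with at most 3 and 1 library at 0. The 30 libraries of the other 4 lines held 66, with at most 7 and 5 libraries at 0. The ranges overlapped, no test was made below the filter, and at this depth these counts do not check the RNF25 genotype. Exons of STK36 on the opposite strand cover 11.2% of RNF25.

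Azacytidine changed 1 of the 31 members when all 6 lines were averaged, against 1.16% of all tested genes. That member was ZNF598, which rose by 0.34 ± 0.08 log2 (95% interval 0.18 to 0.51, 1.27-fold, edgeR adjusted p = 0.0118). The 18 azaC-treated libraries ran from 42.8 to 125 CPM with a median of 88.3, and the 18 untreated ones from 30.5 to 98.6 with a median of 69.9. The ranges overlapped, and the 3 azaC-treated libraries lay above all 3 untreated ones in AAVS1 and ZNF598 KO only. Averaged over the 4 lines not labelled as GCN2 knockouts, ZNF598 rose by 0.43 ± 0.10 (1.34-fold, adjusted p = 0.0115, 1.07% of all genes passing). Both rises missed the threshold without the 2 libraries of extreme GC slope (adjusted p = 0.0532 and 0.0726) and with untreated eS31 K113R held to its first library (0.0818 and 0.125). The first was also lost without a filter on low counts (0.0527) and the second with only the compared groups fitted (0.0505). Their adjusted p ranged over 0.00225 to 0.0818 and 0.00141 to 0.125 in the alternatives, and the log2 difference stayed positive in each.

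By line, ZNF598 was higher with azaC by 0.53 ± 0.20 log2 in AAVS1, 0.66 ± 0.19 in RNF25 KO, 0.32 ± 0.19 in GCN2 KO, 0.30 ± 0.21 in its own KO line, 0.21 ± 0.19 in eS31 K113R and 0.04 ± 0.19 in RNF25 GCN2 DKO. In RNF25 KO the adjusted p was 0.164, and 0.0155 without azaC-treated replicate 3. In the other lines it was 0.992 to 1. The 95% interval in RNF25 GCN2 DKO ran from -0.36 to 0.43. The responses of RNF25 GCN2 DKO and RNF25 KO differed by -0.62 ± 0.27, which did not pass (adjusted p = 0.838, 0.117% of all genes passing). The mean response of the GCN2-intact lines minus that of the GCN2-edited lines was 0.25 ± 0.17 (adjusted p = 1, 0.208% of all genes passing). A difference in the ZNF598 response between genotypes was therefore not shown.

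No member passed within a single line under either drug, by edgeR without a replicate block (a term for the replicate number in the fit). With a block EIF4E2 and VCP passed in AAVS1, and VCP and ZNF598 in RNF25 KO, all under HF. For azaC the share of all genes passing was 0.117% in AAVS1, 0.451% in RNF25 KO, 0% in GCN2 KO, 0% in RNF25 GCN2 DKO, 0.117% in ZNF598 KO and 0.515% in eS31 K113R. For HF it was 1.55% in AAVS1, 1.77% in RNF25 KO and 1.07% in GCN2 KO. At an unadjusted p under 0.05 these 9 comparisons held 0 to 7 members. DESeq2 called VCP in AAVS1 and RNF25 KO under HF, and limma-voom called EDF1 and VCP in AAVS1 under HF. That EDF1 comparison contains untreated AAVS1 replicate 2, at 28.4 CPM, and no limma-voom fit was run without that library. The azaC and HF comparisons of a line share its untreated libraries. The member with the smallest p under azaC was PELO in RNF25 KO, the factor that recognises the empty decoding site of a stalled ribosome. It was at 7.25, 11.2 and 8.73 CPM untreated and at 28.2, 23.3 and 15.9 with azaC. All 3 treated libraries lay above the untreated ones, and the log2 difference of 1.29 ± 0.36 did not pass (adjusted p = 0.128, range 0.053 to 0.459 over 14 alternatives). NPLOC4 in the same comparison stood 0.96 ± 0.30 higher (adjusted p = 0.229). Averaged over the 6 lines PELO was 0.48 ± 0.15 higher (adjusted p = 0.092) and ANKZF1 0.31 ± 0.10 (0.126), and neither passed.

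Halofuginone changed 4 of the 31 members in the mean of AAVS1 and RNF25 KO, while 5.63% of all tested genes passed. ZNF598 rose, and VCP, EIF4E2 and G3BP1 fell. At an unadjusted p under 0.05 the share was 8 of 31 members and 17.1% of all genes. The median log2 difference was 0.14 over the members and 0.01 over all genes. Changed members belonged to different steps: collision marking, repression of initiation, chain extraction and the USP10 deubiquitylase module. The promoters of the 3 that fell are printed because they are the members that went down together. Each is the 250 bases before a RefSeq start in GRCh38.p14: VCP at chr9:35072626-35072875 on the minus strand, G3BP1 at chr5:151771704-151771953 on the plus strand, and the first start of EIF4E2 at chr2:232550439-232550688 on the plus strand. All 3 windows lie inside the gene spans given below, which begin further upstream. Capitals mark CCAAT on either strand (printed as CCAAT or ATTGG) in VCP and G3BP1, and the ETS motif CCGGAAG in EIF4E2.
VCP: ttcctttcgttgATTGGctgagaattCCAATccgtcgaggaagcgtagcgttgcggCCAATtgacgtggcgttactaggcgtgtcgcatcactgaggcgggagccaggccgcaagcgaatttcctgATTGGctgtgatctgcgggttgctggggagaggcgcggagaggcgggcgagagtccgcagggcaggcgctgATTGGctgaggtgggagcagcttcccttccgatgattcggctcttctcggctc
G3BP1: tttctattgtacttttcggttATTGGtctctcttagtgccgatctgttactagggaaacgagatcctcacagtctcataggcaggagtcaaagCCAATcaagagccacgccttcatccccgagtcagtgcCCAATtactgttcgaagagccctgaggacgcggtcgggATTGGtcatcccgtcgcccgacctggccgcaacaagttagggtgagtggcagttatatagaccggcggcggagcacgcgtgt
EIF4E2: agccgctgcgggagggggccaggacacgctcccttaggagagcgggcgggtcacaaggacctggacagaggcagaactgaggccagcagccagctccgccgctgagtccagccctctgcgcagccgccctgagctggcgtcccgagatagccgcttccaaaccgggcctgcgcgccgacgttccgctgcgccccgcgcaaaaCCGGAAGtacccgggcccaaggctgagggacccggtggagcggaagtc
VCP held CCAAT 5 times, at 238, 224, 194, 124 and 53 bases before the start, and 0.319% of 35116 promoters held it 5 or more times. G3BP1 held it 4 times, at 229, 157, 120 and 82 bases, a number reached by 0.874%. Any CCAAT was present in 32% of all promoters and in 10 of the 28 members with a promoter in the table. CCGGAAG was in 8.52% of promoters and in 3 members, EIF4E2, NPLOC4 and USP10. The window of the second EIF4E2 start, at chr2:232550817-232551066, held no motif match. The amino acid response element TGATGNAA, bound by the stress factor ATF4 with its partners, was in 3.14% of promoters and in 1 member, OTUD3. TGACGTCA was in 1.65% and in ABCE1, while TTCNNGAA (6.62% of promoters) and TATAAA (10.7%) were in 0 members. Both strands were searched and no matches overlapped in the printed promoters. These are letter matches, looked up after the changes were known.

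VCP (ENSG00000165280, chromosome 9, 35056064 to 35073249, minus strand) fell with HF in AAVS1 and RNF25 KO cells. Untreated AAVS1 was at 344, 310 and 337 CPM and HF-treated AAVS1 at 244, 210 and 249. Untreated RNF25 KO was at 345, 344 and 308, and HF-treated RNF25 KO at 267, 221 and 237. The 6 HF-treated libraries, at 210 to 267, all lay below the 6 untreated ones, at 308 to 345. The mean log2 difference was -0.48 ± 0.10 (0.719-fold, edgeR adjusted p = 0.000991). It passed in 20 of 20 alternatives, with adjusted p from 4.87e-05 to 0.0192. In the single lines it was -0.49 ± 0.14 (adjusted p = 0.0618) and -0.46 ± 0.14 (0.0825). In GCN2 KO, VCP was at 272, 320 and 282 CPM untreated and at 298, 262 and 340 with HF. These libraries overlapped, with a log2 difference of 0.04 ± 0.14 (adjusted p = 0.972). The difference between the HF responses of GCN2 KO and AAVS1 was 0.54 ± 0.20, with a 95% interval of 0.13 to 0.94 before adjustment. It did not pass over all genes (adjusted p = 0.467, range 0.191 to 1 over 20 alternatives), where 0.334% of genes did. With azaC, VCP changed by -0.07 ± 0.06 in the mean of 6 lines and did not pass.

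EIF4E2 (ENSG00000135930, chromosome 2, 232550052 to 232583644, plus strand, with 24.2% of its exon length under opposite-strand exons) encodes the cap-binding protein that GIGYF2 carries to collided ribosomes. Untreated AAVS1 was at 263, 273 and 205 CPM and HF-treated AAVS1 at 177, 173 and 155, with no overlap. Untreated RNF25 KO was at 182, 295 and 206 and HF-treated RNF25 KO at 169, 187 and 144, where 1 treated library lay above 1 untreated library. The mean log2 difference was -0.50 ± 0.13 (0.705-fold, edgeR adjusted p = 0.00758). Without untreated RNF25 KO replicate 2 it was -0.39 and missed the threshold (adjusted p = 0.0531, range 0.000368 to 0.0531 over 20 alternatives). In GCN2 KO, EIF4E2 was at 190, 265 and 196 CPM untreated and at 232, 237 and 221 with HF, which overlapped (0.09 ± 0.18, adjusted p = 0.946). The HF responses of GCN2 KO and AAVS1 differed by 0.64 ± 0.25, which did not pass (adjusted p = 0.517). Its partners GIGYF2 (-0.32 ± 0.16, adjusted p = 0.284) and GIGYF1 did not pass in the HF mean.

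G3BP1 (ENSG00000145907, chromosome 5, 151771045 to 151812785, plus strand) encodes the stress granule protein that binds USP10. In AAVS1 it was at 382, 387 and 331 CPM untreated and at 246, 291 and 300 with HF. In RNF25 KO it was at 333, 290 and 322 untreated and at 242, 245 and 259 with HF. In each line the 3 HF-treated libraries lay below the 3 untreated ones. The mean log2 difference of -0.37 ± 0.11 (0.776-fold) passed narrowly (edgeR adjusted p = 0.0466). It passed in 8 of 20 alternatives, at 0.0116 to 0.163. Among single libraries the call was lost without untreated AAVS1 replicate 1 or 2 (0.0931, 0.0885), untreated RNF25 KO replicate 1 or 3 (0.106, 0.0887), HF-treated AAVS1 replicate 1 or 2 (0.152, 0.0716), or HF-treated RNF25 KO replicate 1, 2 or 3 (0.103, 0.0938, 0.0574). In GCN2 KO it was at 345, 308 and 261 CPM untreated and at 264, 283 and 286 with HF, which overlapped (-0.13, adjusted p = 0.895).

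ZNF598 moved the other way under HF. The 6 HF-treated libraries of AAVS1 and RNF25 KO were at 77 to 121 CPM with a median of 86.7, above the 6 untreated ones at 55.9 to 74.9 with a median of 58.8. The mean log2 difference was 0.54 ± 0.14 (95% interval 0.25 to 0.82, 1.45-fold, edgeR adjusted p = 0.01). Without HF-treated RNF25 KO replicate 1 the adjusted p was 0.0584, the highest of the 20 alternatives, and the lowest was 0.00264. It also missed the threshold without a filter on low counts (0.0512) and with only the compared groups fitted (0.0536). In GCN2 KO the libraries overlapped, with a log2 difference of 0.09 ± 0.20 (adjusted p = 0.954). The HF responses of GCN2 KO and AAVS1 differed by -0.34 ± 0.28 (adjusted p = 0.896), and a difference between the lines was not shown.

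The other members under HF are described by role. All 4 ASC-1 complex genes had positive values in the HF mean, with a median of 0.25 log2, at 0.19 ± 0.19 for ASCC2, 0.29 ± 0.22 for ASCC3, 0.21 ± 0.16 for TRIP4 and 0.88 ± 0.76 for ASCC1, and none passed. Of the 5 rescue genes 3 were positive, with a median of 0.21, and ABCE1 stood at -0.39 ± 0.25. The 3 repression genes were all negative, with a median of -0.32. Of the 7 chain quality control genes 3 were positive, with a median of -0.03, and of the 5 deubiquitylation genes 1 was, with a median of -0.15. With azaC in the mean of 6 lines every role median lay between -0.09 and 0.17. ANKZF1, the hydrolase that frees the stalled chain from its tRNA, stood in AAVS1 at 29.3, 28.4 and 26.3 CPM untreated and at 37.2, 43.1 and 39.0 with HF. In GCN2 KO it was at 18.9, 25.5 and 22.6 untreated and at 17.0, 16.0 and 17.4 with HF, so HF-treated libraries lay above untreated ones in AAVS1 and below them in GCN2 KO. The difference between these responses, -0.91 ± 0.35, did not pass (adjusted p = 0.517). UPF1, the helicase of nonsense-mediated decay, was at 101, 120 and 126 CPM in untreated GCN2 KO and at 181, 156 and 176 with HF. The treated libraries were all higher, but the log2 difference of 0.56 ± 0.21 did not pass (adjusted p = 0.256).

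No difference between drug responses passed for any member by edgeR, DESeq2 or limma-voom, and 0 to 6 members per comparison had an unadjusted p under 0.05. The shares of all genes passing were low here too. For the azaC response against AAVS1 they were 0% in RNF25 KO, 0.00903% in GCN2 KO, 0.0451% in RNF25 GCN2 DKO, 0% in ZNF598 KO and 0.00903% in eS31 K113R, and for the HF response 0% in RNF25 KO. EDF1, the sensor that recruits the repressors, depended on untreated AAVS1 replicate 2. Its azaC response in RNF25 KO minus that in AAVS1 was -0.45 log2 with that library and 0.06 without it. Set directly against each other, azaC- and HF-treated cells differed for 0 members by all 3 tools in AAVS1 (0.957% of all genes passing), RNF25 KO (0.83%) and GCN2 KO (1.03%), with 1 to 5 members at an unadjusted p under 0.05. The values with the smallest p, azaC minus HF, included VCP at 0.4 ± 0.14 in AAVS1 (edgeR adjusted p = 0.216) and 0.37 ± 0.14 in RNF25 KO (0.201). GTPBP2 stood at -1.39 ± 0.51 in AAVS1 (0.259), where its HF-treated libraries held 12.4, 16.5 and 8.22 CPM. In RNF25 KO, UFD1, a VCP adaptor, stood at 0.62 ± 0.22 (0.173) and TRIP4 at -0.63 ± 0.23 (0.182). These calls are without a replicate block, and with it UFD1 passed (0.65, edgeR adjusted p = 0.0191).

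Before any drug, the 5 edited lines did not differ from AAVS1 in any member by edgeR, DESeq2 or limma-voom without a replicate block. At an unadjusted p under 0.05 there were 0 to 3 members. With a block ZNF598 passed in ZNF598 KO (edgeR adjusted p = 0.026). These comparisons share the AAVS1 libraries. The shares of all genes passing were 1.61% for RNF25 KO, 1.11% for GCN2 KO, 1.39% for RNF25 GCN2 DKO, 0.921% for ZNF598 KO and 2.89% for eS31 K113R. Each line was also set against the mean of the other 5, over untreated and azaC-treated cells. Besides ZNF598 in its KO line and in eS31 K113R, no member passed by any of the 3 tools without a block, with 0 to 7 at an unadjusted p under 0.05. With a block GIGYF2 and UFD1 also passed in RNF25 KO and EIF4E2 in RNF25 GCN2 DKO. TCF25 passed with it in eS31 K113R and, with USP10, in ZNF598 KO. Without a block 3.85% of all genes passed for AAVS1, 6.41% for RNF25 KO, 3.77% for GCN2 KO and 3.26% for RNF25 GCN2 DKO. The values with the smallest p included GIGYF2 in RNF25 KO at -0.35 ± 0.12 (adjusted p = 0.0808, past the threshold without untreated replicate 2 or azaC-treated replicate 1), EIF4E2 in RNF25 GCN2 DKO at 0.28 ± 0.09 (0.11, past it without untreated replicate 3) and OTUD1, a deubiquitylase, in GCN2 KO at -1.35 ± 0.54 (0.2). Untreated GCN2 KO held 0, 0 and 4 counts of OTUD1, and without replicate 3 the fitted difference moved to -3.27 and passed (0.02). In ZNF598 KO, USP10, which removes ubiquitin from small-subunit proteins, was at -0.27 ± 0.09 (adjusted p = 0.0976 without a block). Whether its neighbours on the chromosome were lower too in that line was not tested. MAP3K20, the kinase that collisions activate, stood at -0.21 ± 0.11 in AAVS1 (0.387).

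Around the members, 138 genes of 12 neighbouring pathways were followed, of which 129 were tested. They covered deadenylation, decapping, the exosome, nonsense-mediated decay, translation factors, GCN1 and DRG partners, UFMylation, ubiquitylated ribosomal proteins, stress kinases, stress granules, VCP cofactors and other collision-linked factors. In the HF mean 3 rose and 4 fell, 5.43% of those tested against 5.63% of all genes. BTG1, which links deadenylases to mRNAs and restrains proliferation, rose by 1.47 ± 0.14 (edgeR adjusted p = 4.02e-11), and passed in 20 of 20 alternatives. EXOSC6 of the exosome (0.65 ± 0.19, 0.03) and DCP1A, a decapping activator (0.55 ± 0.17, 0.0422), rose as well. PTRH2, a peptidyl-tRNA hydrolase, fell by 0.66 (0.00473), as did the stress granule protein UBAP2L (-0.49 ± 0.13, 0.00899), ABCF1, an initiation-linked ATPase (-0.41 ± 0.10, 0.00678), and the translational GTPase DRG1 (-0.41 ± 0.12, 0.0266). Of these, BTG1 and PTRH2 kept the call in every alternative. DCP1A lost it in 12 of 20, among them without both libraries of extreme GC slope (0.5, 0.0929), EXOSC6 in 9, DRG1 in 8, UBAP2L in 3 and ABCF1 in 2. With azaC in the mean of 6 lines BTG1 (0.53 ± 0.08, 2.41e-05) and SMG9 of nonsense-mediated decay (0.59 ± 0.16, 0.0446) rose, 1.55% of those tested against 1.16% of all genes. SMG9 lost the call in 26 of 45 alternatives, among them without both libraries of extreme GC slope (0.49, 0.146).

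The genes whose 15 group means followed the changed members most closely are given by Pearson correlation of log2 CPM, as a description of which transcripts had a like pattern. The group means share libraries and depth. For VCP they were SUMO2 at 0.9, and LSM3, TUBB, NDUFB4 and SF3B5 at 0.89. For EIF4E2 they were SMIM30 at 0.93, ENY2 at 0.91, BICD2 and TMEM9B at 0.89 and AMD1 at 0.88. For G3BP1 they were SRRM1, HDAC2 and STARD7 at 0.86, and ST13 and HCFC1 at 0.85. For ZNF598 they were PRELID3A at 0.85, FXYD6 and SERPINF1 at 0.84, and CTSF and SETBP1 at 0.83. No gene of the 32 was among them.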

How the data were processed

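RNA-seq libraries were made with a polyA kit, per the labels' protocols. The authors deposited raw counts per gene, and the submitters' processing notes name STAR 2.7.10b, HTSeq 0.9.1 and GRCh38. Not given in the sources used here are the annotation release, the strand setting and whether molecular identifiers were used, so reads of opposite-strand neighbours may not be told apart. Counts were tested with edgeR 4.0.16 (R 4.3.3): TMM, filterByExpr with a minimum count of 10, and a quasi-likelihood fit over all 45 libraries with 15 group means and 30 residual degrees of freedom. Tests were two-sided, p-values were Benjamini-Hochberg adjusted over 11078 genes, and the threshold was 0.05. Levels are CPM on TMM library sizes, per kb of merged exon in GENCODE v29 where genes are compared. Rows without a symbol (2862 of 60676) were kept. No library was a copy of another of its group (chi-square over degrees of freedom of at least 3). The fit was tested on simulated data. DESeq2 1.42.0, limma-voom (limma 3.58.1), other filters and scalings, a replicate block and left-out libraries were alternatives. Named genes were the edited members, every member past the threshold, and otherwise at most 3 per comparison by p. The members, neighbouring pathways and markers were chosen with earlier results of these data known.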

Additional observations from a re-analysis of the deposited data

Results flagged for a closer look

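ANKZF1, the hydrolase that releases stalled nascent chains, moved in opposite directions with HF in different lines: every HF-treated library lay above the untreated mean in AAVS1 (0.51 log2) and RNF25 KO (0.27), and below it in GCN2 KO (-0.4). None of these passed alone by edgeR (adjusted p = 0.395, 0.762 and 0.686). The difference between GCN2 KO and AAVS1 was tested and did not pass (-0.91 ± 0.35, adjusted p = 0.517).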

How the results depend on the processing

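Over the 35 comparisons, 778 of 819 alternative counts of members past the threshold lay within 1.5 times the main count, and 22 comparisons had no alternative outside that range. In 30 of the 35 the main count was 0, and a count that stayed at 0 was taken as within it. The 778 therefore says little about the comparisons with members called. The labels do not say what a replicate number marks. Deviations of same-numbered libraries correlated above 0.1 in 229 of 315 pairs (-0.247 to 0.463, median 0.149, against -0.085 for different numbers). This hints at a shared deviation in many pairs, though not in every pair. The main fits were run without a block and do not remove it. With a replicate block the count became 2 for azaC in the 4 GCN2-intact lines (with G3BP1), 1 for azaC against HF in RNF25 KO (UFD1, 0.65, adjusted p = 0.0191), 2 for eS31 K113R against the other lines (with TCF25), 2 for HF in AAVS1 (EIF4E2 and VCP), 2 for HF in RNF25 KO (VCP and ZNF598), 1 for RNF25 GCN2 DKO (EIF4E2, 0.28, 0.0151) and 2 for RNF25 KO (GIGYF2, -0.35, 0.00475, and UFD1) against the other lines, 1 for untreated ZNF598 KO against AAVS1 and 3 for ZNF598 KO against the other lines (with TCF25 and USP10). The block raised the count of all genes in the HF mean from 624 to 1006, and for azaC in 6 lines from 128 to 279. Without a filter on low counts the count was 1 for azaC in RNF25 KO, 0 for azaC in 6 lines, 0 for eS31 K113R and 2 for the HF mean. With compared groups only it was 0 for azaC in the 4 lines and 2 for the HF mean. Without both libraries of extreme GC slope, chosen after seeing the data, it was 0 for azaC in 4 and in 6 lines, 2 for eS31 K113R, 1 for HF in RNF25 KO and 2 for ZNF598 KO. With untreated eS31 K113R held to its first library it was 0 for azaC in 6 lines, and with ZNF598 KO left out of the reference, also chosen after seeing the data, 0 for eS31 K113R. For HF in AAVS1 it was 1 at a minimum count of 30, 2 by limma-voom and 1 by DESeq2, and for HF in RNF25 KO 1 by DESeq2. Leaving out 1 library gave 0 to 1 for azaC in RNF25 KO, HF in AAVS1, HF in RNF25 KO, and GCN2 KO, RNF25 GCN2 DKO and RNF25 KO against the other lines, 1 to 2 for azaC in 6 lines, 0 to 2 for eS31 K113R and 2 to 4 for the HF mean. The causes were not tested. The direction changed in 13 cases, none past the threshold: ASCC1 in the RNF25 KO against AAVS1 HF response (2.18 with all libraries, -0.47 without untreated AAVS1 replicate 2, to 3.02 over left-out libraries, and -0.47 without both libraries of extreme GC slope), EDF1 in the azaC response of the same pair (-0.45 with all libraries, 0.06 without that library, down to -0.8, and 0.08), EIF4E2 (-0.01 to 0.24), VCP (-0.07 to 0.13, with -0.01 between) and ZNF598 (-0.04 to 0.18) under HF in GCN2 KO without 1 library, ZNF598 under azaC in eS31 K113R with its first library only (-0.04) and in RNF25 GCN2 DKO without 1 library (-0.03 to 0.15), and ZNF598 in RNF25 GCN2 DKO with ZNF598 KO out of the reference (-0.03). Depth left RNF25 untested.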

Other observations

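Several neighbours of the collision factors differed between the lines when each was set against the mean of the other 5, by edgeR. Of the 129 tested, 0% passed for AAVS1, 1.55% for RNF25 KO and RNF25 GCN2 DKO, 2.33% for GCN2 KO and ZNF598 KO and 3.88% for eS31 K113R, against 3.26% to 8.39% of all genes in these comparisons. CNOT7, a catalytic deadenylase subunit, was 1.09 ± 0.07 log2 higher in GCN2 KO (adjusted p = 9.05e-17). UPF3B of nonsense-mediated decay was 0.99 lower in eS31 K113R (-0.99 ± 0.11, 6.42e-10), where BTG1 was higher (0.9 ± 0.1, 2.18e-09). N4BP2, a human relative of the endonuclease that cuts mRNAs at collisions in worms and yeast, was higher in RNF25 GCN2 DKO (0.81 ± 0.16, 0.000616), and CNOT1, the deadenylase scaffold, was lower in ZNF598 KO (-0.44 ± 0.09, 0.000899). These 5 calls held in every alternative run for them. The chromosome positions of these genes were not examined. A change of a whole chromosome region in a line cannot be told apart here from a change of the single gene. In ZNF598 KO N4BP2 was lower (-0.66 ± 0.19, 0.0289) and lost the call without 4 of 36 single libraries.

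DDX6, an RNA helicase of translational repression, was the gene among these neighbours whose HF response differed between GCN2 KO and AAVS1 (1.14 ± 0.24, edgeR adjusted p = 0.00964). The call was lost without untreated AAVS1 replicate 2 or untreated GCN2 KO replicate 2, and the adjusted p ran from 0.00087 to 0.0629 over 20 alternatives. In GCN2 KO alone DDX6 was higher with HF (0.66 ± 0.17, 0.0389), a call lost without any 1 of its 6 libraries.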
